A study of Rattus norvegicus with 16 samples.

Results

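The maturation of the rat kidney after birth was followed in sham-operated male Wistar pups by comparing 4 kidney libraries from surgery on day 14 of life with 4 from surgery on day 1. The tissue was taken 3 days after each operation. Of the 26689 genes in the deposited table, 14845 reached a mean of 3 over all 16 libraries and were compared, and the other 11844 were left out as weakly expressed or silent. The other 8 libraries came from pups of the same strain and sex that lost the left kidney (uninephrectomy, UNX) on day 1 or day 14, with 4 libraries per day. They served here as a second pair of ages that shares no library with the sham pair. The labels name no genetic change in any group, and pups without an operation were not analysed here, so every value belongs to a kidney 3 days after anaesthesia and surgery.

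In the rat, new nephrons are still being formed from a progenitor cell population during the first days after birth. Progenitor and cell division programmes then subside while the tubules acquire the transporters, metabolic enzymes and concentrating capacity of the adult organ. A comparison of the first postnatal days with the third postnatal week therefore spans the end of nephron formation and a large part of tubular maturation. The deposited identifiers are Ensembl gene numbers, and none of the 26689 could be paired with a gene name here, so markers of the kidney or of progenitors, tubules, blood, adrenal or fat could not be looked up. The genes are described below by their direction, their size of change and their level.

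Values are regularised-log (rlog) expression levels, a log2-scale measure that the authors scaled for library depth. The rlog transform pulls weakly expressed genes towards their mean, so differences at low levels are understated. A difference is the sham day 14 mean minus the sham day 1 mean on that scale, where 1 is a doubling of the back-transformed value. A gene is said to have risen or fallen when limma, a linear model fitted over all genes, gave a Benjamini-Hochberg adjusted p under 0.05. Whether the libraries of a group stem from different pups is not said in the labels, and the p-values then cover only the spread between these libraries, which may be technical.

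Between the ages 3358 genes rose (22.6% of those tested) and 3338 fell (22.5%), 45.1% in all. The 2 directions were close to equal in number, and the median difference over all tested genes was -0.00050, a middle that the depth scaling holds near 0. From the 5th to the 95th percentile the differences ran from -0.45 to 0.48, and from the 1st to the 99th from -0.84 to 0.89. In 36.7% of genes the 4 values of one age lay wholly above or below the 4 of the other. Rises of at least 0.5 were found in 669 genes (4.51%) and falls of that size in 565 (3.81%). Rises of at least 1 were found in 100 genes (0.674%) and falls in 87 (0.586%). The median within-group SD over all tested genes was 0.088 at both ages. The median size of the difference was 0.14 over all tested genes and 0.28 over the called genes. Called genes were chosen for a difference large against their spread, so their larger median follows in part from the choice.

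The gene that fell most was ENSRNOG00000002889. Its rlog values were 9.72, 9.56, 9.64 and 9.41 in sham day 1 libraries 1 to 4, and 6.25, 6.34, 6.08 and 6.11 in sham day 14 libraries 1 to 4. Every older library lay over 3 units below every younger one. The means were 9.58 ± 0.14 and 6.20 ± 0.12 (SD, n = 4 each), a difference of -3.39 (SE 0.085, 95% interval -3.56 to -3.21, limma adjusted p = 1.5e-15), which is 10.5-fold on the back-transformed rlog scale. In the UNX kidneys the same gene stood at 9.60, 9.72, 9.95 and 9.90 on day 1 and at 6.31, 6.29, 6.33 and 6.16 on day 14, a difference of -3.52 (SE 0.085). The UNX values did not enter the sham difference, though they entered the level filter and the spread used in the test.

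ENSRNOG00000022721 was next among the falls. Its rlog values were 9.56, 9.47, 9.56 and 9.62 in the sham day 1 libraries and 7.02, 7.09, 7.001 and 6.63 in the sham day 14 libraries. The younger libraries lay close together, and sham day 14 library 4 was the lowest of the older ones. The means were 9.55 ± 0.061 and 6.93 ± 0.21 (SD, n = 4 each), a difference of -2.62 (SE 0.090, 95% interval -2.81 to -2.43, limma adjusted p = 3.1e-13), or 6.13-fold. The UNX difference of ENSRNOG00000022721 was -2.46 (SE 0.090), from 9.38 ± 0.11 on day 1 to 6.92 ± 0.15 on day 14.

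The gene that rose most was ENSRNOG00000005223. Its rlog values were 5.59, 5.69, 5.62 and 5.52 in the sham day 1 libraries and 8.04, 7.85, 8.22 and 8.98 in the sham day 14 libraries. The groups did not overlap, which the choice of genes required, and sham day 14 library 4 was the highest. The means were 5.61 ± 0.072 and 8.27 ± 0.50 (SD, n = 4 each), a difference of 2.67 (SE 0.16, 95% interval 2.33 to 3.01, limma adjusted p = 3.6e-10), or 6.36-fold. The UNX difference of ENSRNOG00000005223 was 2.60 (SE 0.16), from 5.52 ± 0.055 to 8.12 ± 0.23, with none of the 4 older UNX values, the highest of which was 8.35, as high as sham day 14 library 4.

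ENSRNOG00000003620 was next among the rises and was the more abundant of the 2. Its rlog values were 8.21, 8.40, 8.57 and 8.24 in the sham day 1 libraries and 10.60, 11.04, 10.93 and 10.84 in the sham day 14 libraries. No single library stood apart at either age. The means were 8.36 ± 0.17 and 10.9 ± 0.19 (SD, n = 4 each), a difference of 2.49 (SE 0.14, 95% interval 2.21 to 2.78, limma adjusted p = 9.1e-11), or 5.64-fold. The UNX difference of ENSRNOG00000003620 was 2.53 (SE 0.14), from 8.31 ± 0.19 to 10.8 ± 0.36.

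**Figure D1:**
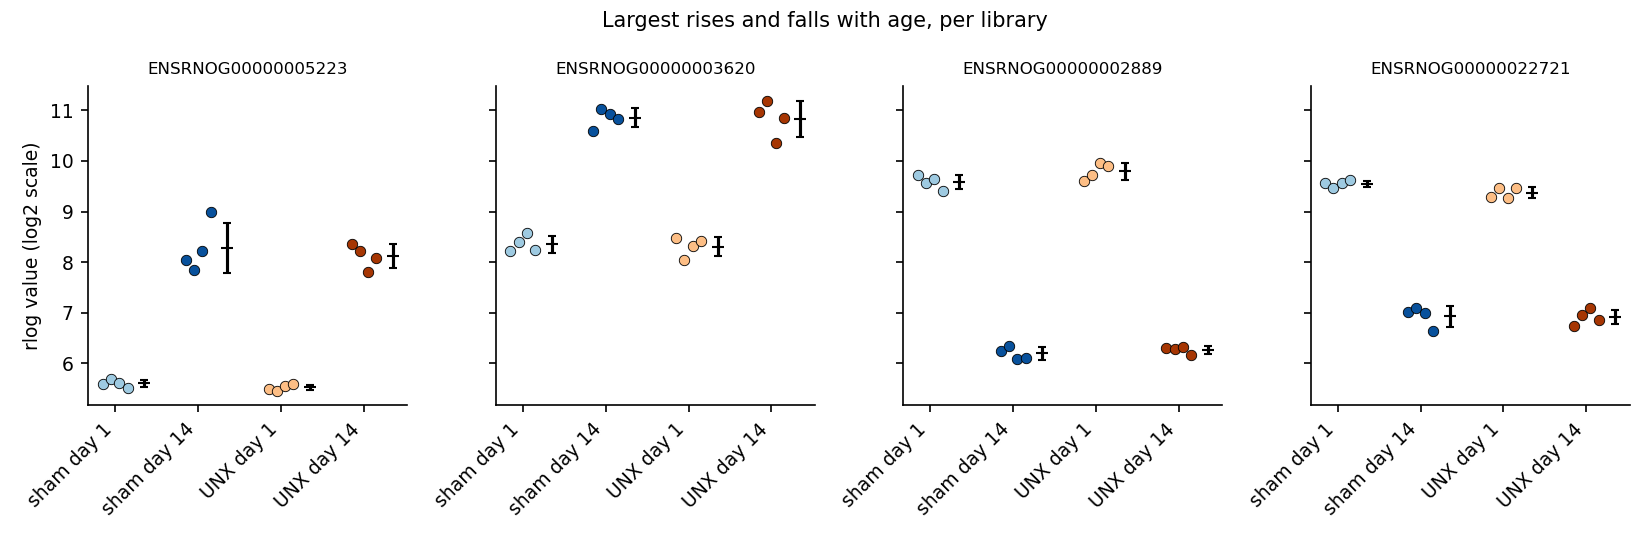
rlog value (log2 scale) of the 2 genes that rose most and the 2 that fell most between the sham ages, with 1 point per library in library order within each group, and the mean with its SD (n = 4) as a bar beside the points. That the sham ages do not overlap was a condition of choosing these genes. In UNX kidneys the day 1 and day 14 points do not overlap in any of the 4 genes either.

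Behind these pairs, the next 13 rises by size among genes whose ages did not overlap ran from 1.68 to 2.47, and the mean levels of these genes from 6.46 to 13.2. The next 13 falls ran from -2.38 to -1.72, at mean levels of 6.70 to 10.9. All 13 rises and all 13 falls also passed the test in the UNX kidneys, with differences of 0.99 to 2.58 and of -2.44 to -0.85. Over all tested genes 45.9% passed there. The spread of the 13 rising genes had a median SD of 0.21 on day 1 and 0.25 on day 14, and that of the 13 falling genes of 0.13 and 0.19.

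How the change was spread over weakly and strongly expressed genes was read by grouping the tested genes by their mean rlog value over the 16 libraries. Among the 1745 genes with a mean of 3 to 5, 172 rose (9.86%) and 275 fell (15.8%). From 5 to 7, 17.4% of 2397 genes rose and 21.3% fell, and from 7 to 9, 19.3% of 4510 rose and 22.4% fell. With the deposited scaling the order turned from 9 upwards. From 9 to 11, 27.9% of 4656 genes rose and 24.5% fell, and from 11 to 13, 37.4% of 1362 rose and 26.3% fell. Among the 175 genes with a mean of at least 13, 91 rose (52.0%) and 41 fell (23.4%). Over all tested genes these shares were 22.6% and 22.5%. With this scaling, rises outnumbered falls in the 3 most abundant classes and falls outnumbered rises in the other 3. The median size of the difference was 0.089 from 3 to 5 and 0.23 at 13 and over. The rlog transform understates differences at low levels, and its part in these values by class was not tested.

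The UNX kidneys, read in the same classes, gave 23.1% higher and 22.9% lower over all genes. From 3 to 5, 157 of 1745 genes were higher and 245 lower on day 14, and at 13 and over 85 of 175 were higher and 51 lower. The median difference in the top class was 0.15 in sham and 0.14 in UNX kidneys, and in the class from 3 to 5 it was -0.012 and -0.0072. The excess of rises among abundant genes depended on the scaling. With quantile normalization, which forces the same distribution of levels on every library, 46 of the 175 most abundant sham genes rose and 59 fell. From 11 to 13 the counts were 425 and 442 in place of 509 and 358. In the class from 9 to 11 they were 1158 and 1296 in place of 1297 and 1143. Falls then outnumbered rises in every class, so the turn at 9 was not kept. With each library centred on its median the top class gave 92 rises and 41 falls. The 100 rises of at least 1 lay in genes with mean values of 5.58 to 13.7, with a median of 9.12, and the 87 such falls in genes of 5.22 to 11.7, with a median of 8.33. From 3 to 5, where the rlog transform understates differences, no gene rose or fell by that much. From 5 to 13 the share of genes that rose by at least 1 was 0.587% to 0.838% per class, and at 13 and over it was 3.43% (6 of 175 genes), with 0 falls of that size. Rises of at least 0.5 made up 13.7% of the top class (24 genes) and falls 2.29% (4 genes), against 4.51% and 3.81% over all tested genes. With quantile normalization the top class held 6 rises of at least 1, 14 rises of at least 0.5 and 12 falls of at least 0.5.

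**Figure D2:**
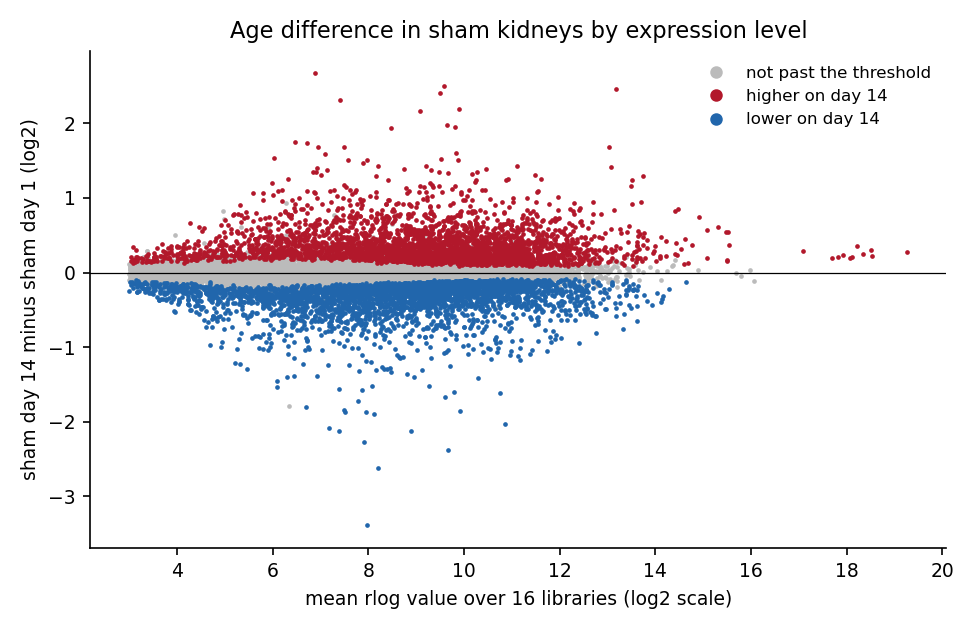
Sham day 14 minus sham day 1 (log2) against the mean rlog value over 16 libraries, with 1 point per tested gene. Red points rose and blue points fell at adjusted p under 0.05, 3358 and 3338 genes, and the 11 genes at the far right all lie above 0.

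**Figure D3:**
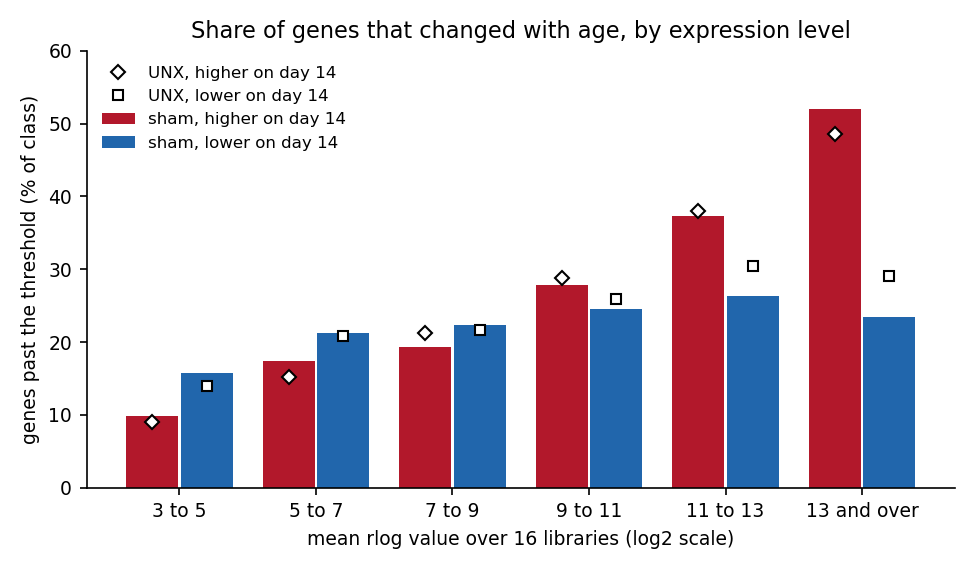
Percent of genes past the threshold in 6 classes of mean rlog value, with bars for sham and open symbols for UNX kidneys. In sham kidneys the share that rose goes from 9.86% in the lowest class to 52.0% in the highest, while the share that fell stays between 15.8% and 26.3%. With quantile normalization the rises in the highest class number 46 in place of 91, and falls outnumber rises in every class. Differences at low levels are understated by the rlog transform.

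At the top of the range a small group of genes was set apart. There were 11 genes with mean rlog values from 17.1 to 19.3, while the next lay at 16.1, and this bound was chosen after the values were seen. All 11 rose, by 0.19 to 0.35 with a median of 0.23, and in 10 the ages did not overlap. Over all tested genes 22.6% rose and 36.7% did not overlap, and in the class at 13 and over 52.0% rose. In UNX kidneys the same 11 differed by 0.076 to 0.35 with a median of 0.23, and 8 passed the test, against 23.1% of all tested genes that were higher there. Together they took 17.5% to 18.9% of the summed back-transformed values in the sham day 1 libraries and 19.3% to 21.6% in the sham day 14 libraries. In UNX kidneys this share was 18.9% to 20.1% on day 1 and 19.9% to 22.3% on day 14. The UNX ages thus overlapped in this share, and so did UNX day 1 with sham day 14. Under quantile normalization the differences of the 11 genes ran from -0.052 to 0.052 and 0 passed in either direction. That scaling sets the top values equal in every library.

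The list of the most abundant genes changed little at its head and more below. Of the 20 genes with the highest mean in sham day 1 kidneys, 19 were also among the 20 highest in sham day 14 kidneys. Of the 100 highest at each age, 76 were shared. At the same age, sham and UNX kidneys shared 93 of 100 on day 1 and 95 of 100 on day 14. Among the 100 most abundant over all libraries, 65 rose, 18 fell and 17 did not pass the test, with differences of -0.64 to 1.29. Over all tested genes 22.6% rose and 22.5% fell. The lowest mean among the 100 was 13.5, so all lie in the class at 13 and over. There 46 of 175 genes rose and 59 fell under quantile normalization, so this excess of rises depended on the scaling too. The 100 genes highest in each library held 28.2% to 29.6% of the summed values on day 1 and 30.6% to 32.9% on day 14, and the sham groups did not overlap. These sums include the 11 genes above and hold only for the deposited scaling, since quantile normalization sets the top values equal in every library.

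The comparison of the 2 ages was repeated in the UNX kidneys. It gave 6821 genes past the threshold (45.9%), 3423 higher and 3398 lower on day 14. Of these, 5110 had also passed in sham kidneys, which is 76.3% of the sham calls and 74.9% of the UNX calls. The direction was the same in 5104 of the 5110. When each pair of ages was fitted alone, so that the fits shared not even the estimate of spread, 5677 sham (38.2%) and 7376 UNX genes (49.7%) passed and 4758 were common, 4755 of them in the same direction. The 6 genes of opposite direction were of middle level, with mean rlog values of 6.74 to 10.6, and differed by 0.11 to 0.56 in size in sham and 0.097 to 0.34 in UNX kidneys. None of the 6 passed the test of the difference between sham and UNX (smallest limma adjusted p = 0.134).

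Genes chosen in the fit of the 8 UNX libraries alone were then read in the sham kidneys. Of these 7376 genes, 7092 (96.1%) differed in the same direction in sham kidneys, against 68.5% of the genes that this fit did not call. In 4409 (59.8%) the sham ages did not overlap, against 14.005% of the genes not called. The 122 UNX rises of at least 1 had a median difference of 1.21 in UNX and 1.11 in sham kidneys, and their sham differences ran from 0.26 to 2.67. In 118 of the 122 the sham ages did not overlap. The 76 UNX falls of that size had medians of -1.20 and -1.23, with sham differences of -3.39 to -0.58, and the ages did not overlap in 75.

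In the other direction, the 100 sham rises of at least 1 had a median of 1.20 in sham and 1.22 in UNX kidneys, where 97 passed the test and 76 reached 1. The 87 sham falls had medians of -1.22 and -1.16, and in UNX kidneys 87 passed and 63 reached a fall of 1. Over all tested genes 45.9% passed in UNX kidneys. All 7 genes that rose by at least 2 did so in UNX kidneys too, and 5 of the 8 that fell by at least 2. The 3 large sham rises that UNX kidneys did not call had differences of 1.09, 1.06 and 1.10 in sham and 0.0088, 0.28 and 0.46 in UNX kidneys. Their SD in sham day 14 kidneys was 0.66, 0.27 and 0.61, against a median of 0.19 for the 100 rises, and the difference between sham and UNX did not pass in any of them (limma adjusted p = 0.401, 0.240 and 0.476).

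Over the 14845 genes, which are not independent of each other, the sham and UNX differences had a Pearson r of 0.90 and a Spearman rho of 0.85. The libraries of a surgery day may also share handling, litter or sequencing that the labels do not record, and per the labels 30-60 mg of tissue was extracted after UNX on day 1 and 60-100 mg after UNX on day 14. Age, tissue amount and anything else that followed the day of surgery cannot be told apart in either pair. In whole kidney RNA, more cells of a type and more RNA per cell cannot be told apart either. A test of whether the age difference itself differed between UNX and sham kidneys gave 0 genes (0%, smallest limma adjusted p = 0.058). At an unadjusted limma p under 0.05 it gave 1586 of the 14845 genes, a larger share than the 0.05 expected if no gene differed. The 0 genes therefore do not show that the sham and UNX age differences were equal. The count by adjusted p became 5 when sham day 1 library 3 was left out, 2 for UNX day 14 library 3 and 1 for UNX day 14 library 4.

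**Figure D4:**
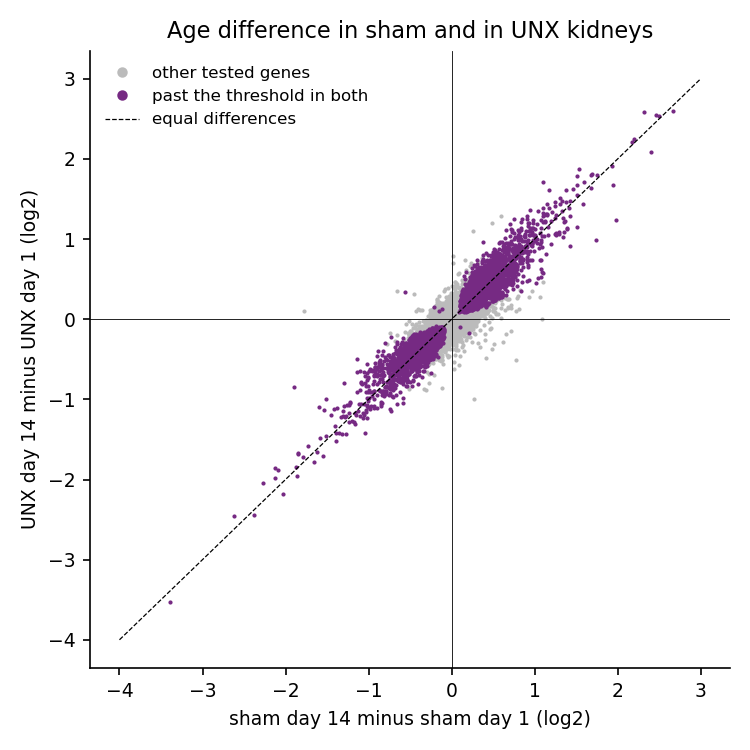
Age difference in UNX kidneys (UNX day 14 minus UNX day 1, log2) against that in sham kidneys (sham day 14 minus sham day 1, log2), with 1 point per tested gene and a dashed line of equal differences. The 5110 genes past the threshold in both, in purple, lie along the line, and 6 of them have opposite signs.

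Each sham library was placed on an axis drawn from the UNX libraries alone. This is the line over all tested genes from the UNX day 1 mean, set at 0, to the UNX day 14 mean, set at 1. Sham day 1 libraries 1 to 4 stood at 0.035, -0.014, 0.086 and 0.050. Sham day 14 libraries 1 to 4 stood at 0.86, 0.90, 0.86 and 1.09. The sham ages did not overlap, and the older group was more spread out (0.039 ± 0.041 against 0.93 ± 0.11, SD, n = 4 each), mainly through library 4. The axis holds the spread of the UNX libraries, which draws other libraries in from its ends, so a position below 1 says nothing of a slower change in sham kidneys.

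The weight of the changing genes gave the same order, but it is not separate from the axis, since both come from the UNX age differences. The genes that UNX kidneys called higher on day 14, in the fit over all 16 libraries, took 39.7%, 39.4%, 40.6% and 39.6% of the summed back-transformed values in sham day 1 libraries 1 to 4, and 45.8%, 46.7%, 45.8% and 47.9% in sham day 14 libraries 1 to 4. The genes that UNX kidneys called lower took 25.8%, 26.1%, 24.9% and 25.8% on day 1, and 20.7%, 20.02%, 20.6% and 18.8% on day 14. The sham ages did not overlap in either share. Of the 11 most abundant genes, 8 are in the higher set, and the sham rise of the 11 was not kept under quantile normalization. How the shares change with that scaling was not tested. At each age 1 library lay furthest towards the older pattern in both, sham day 1 library 3 and sham day 14 library 4.

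Those 2 libraries were then compared by their deviations over the same tested genes that gave the axis and the shares, so this is not separate evidence. Across genes, the deviations of sham day 1 library 3 and sham day 14 library 4 from their group means had an r of 0.34, the highest of the 16 pairings between the sham ages. Sham day 14 library 4 had an r of 0.41 with UNX day 14 library 1, which stood furthest along the axis among the UNX libraries and is itself part of the axis end. In sham day 1 library 3, 20 genes lay at least 1 above the mean of the other 3 libraries and 3 lay at least 1 below. In sham day 14 library 4, 2 lay above and 11 below by that much. Without both libraries 5886 genes passed, of which 5616 were among the 6696. By depth, read from the values given to undetected genes, sham day 1 libraries 1 to 4 stood at ranks 13, 16, 15 and 7 of 16 and sham day 14 libraries 1 to 4 at 10, 12, 1 and 4, where 1 is the deepest. The older sham libraries were thus deeper on the whole, with overlap, and the part of depth in the age difference was not tested.

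**Figure D5:**
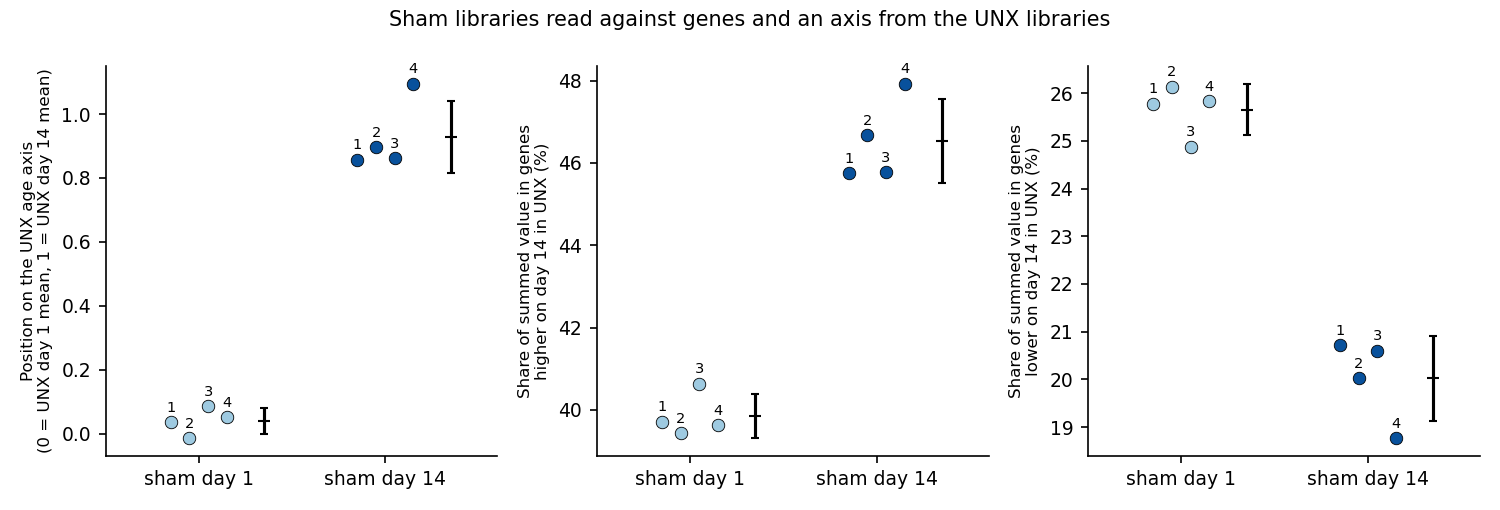
Each sham library by its position on the UNX age axis (left), and by the percent of summed back-transformed rlog values in genes that UNX kidneys called higher (middle) and lower (right) on day 14, with library numbers beside the points and the mean and SD (n = 4) as bars. The sham ages are separate in all 3 panels, and sham day 14 library 4 stands beyond the other 3 at 1.09 on the axis.

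At the boundary of the level filter, the gene just inside had a mean of 3.00009 and a sham difference of 0.12, and the gene just outside had a mean of 2.99887 and a difference of -0.039.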

How the data were processed

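Total kidney RNA was sequenced from 16 samples in 4 groups of 4. Per the labels' protocols, RNA was treated with DNase, and the Ovation Universal kit was used with rat oligonucleotides for depletion. The submitters' processing notes name featureCounts, DESeq2, Subread 1.5.1, STAR 2.4.0 and BWA 0.7.14, without roles. Genome build, annotation and strand setting were not given in the sources used here. Reads of overlapping or near-identical genes therefore cannot be assigned with certainty. The deposited values are rlog levels on a log2 scale, as the table's name and values show. Column names headed CO were matched to the sham titles by day and number. Read totals are not used here, so depth is known only as an order, read from 149 near-silent genes with a signal in 1 library.

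Differences were tested with limma 3.58.1 (R 4.3.3), with 1 mean per group over 16 libraries (12 residual and 6.88 prior degrees of freedom), a mean-variance trend, two-sided tests and p-values adjusted by Benjamini-Hochberg over 14845 genes. It was tested on simulated data. Other values were computed in Python 3.11.15 with numpy 2.4.6, pandas 2.3.3 and scipy 1.17.1. Summed values are sums of 2 to the power of the rlog value over tested genes. Alternatives changed the filter, scaling, variance model, libraries, block and threshold.

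The genes compared and the gene lists were chosen with earlier results of these data known. The rule for naming genes took the largest changes with a symbol, members of fixed lists and fixed kidney genes. The reference tables paired 0 of the 26689 identifiers with a symbol, so 0 of 28 lists, no promoter and no marker could be read. The same rule then allows at most 2 identifiers per direction, and the 2 largest rises and falls among called genes without overlap were taken.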

Additional observations from a re-analysis of the deposited data

Results flagged for a closer look

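Within-group outliers were looked for by Dixon's test over 32 sets of 4 libraries, and 1 set passed. About 1 set in 20 would pass by chance. On the axis drawn from the UNX libraries, sham day 14 library 4 stood at 1.09484, beyond the other 3 sham day 14 libraries at 0.856669 to 0.896518.

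Outside the tested genes, signal above that of the sham libraries was found in 2 of the libraries used for the repeat in UNX kidneys. Among 5051 genes with a mean rlog value under 0, the highest value was that of UNX day 14 library 3 in 47.8519% of genes. It was that of UNX day 14 library 1 in 20.1544%, against 1.70% to 2.99% in each sham library. Without both libraries, a fit chosen after the data were seen, 5247 genes passed in the UNX comparison in place of 6821. The axis from the UNX libraries was not redrawn without them.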

How the results depend on the processing

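The number of genes that differed between the sham ages differed by less than 1.5 times from 6696 under 19 of 20 alternatives, as did the UNX number from 6821. The exception in each was the added requirement of a difference of at least 0.5, which by construction left 1234 sham genes (669 higher and 565 lower) and 1292 UNX genes (747 higher and 545 lower). The test of the difference between the age effects, with 0 genes, gave 0 to 5 when 1 library was left out (5 on leaving out sham day 1 library 3, 2 for UNX day 14 library 3 and 1 for UNX day 14 library 4) and 4 without sham day 1 library 3 and sham day 14 library 4 together; the cause was not tested. The sham differences of the 4 genes given by identifier kept their direction and passed the test in 20 of 20 alternatives each. These genes were chosen for the largest sham differences in the same values, so passing was likely from the choice itself. The library numbers did not pair the samples: between the sham ages, deviations of same-numbered libraries had an r of 0.030, 0.11, -0.18 and -0.082. With a replicate block for the number, 6496 sham and 6676 UNX genes passed. Promoter motifs, planned as a description, were not run because no identifier had a name. Differences of weak genes are limited by the transform, and no counting error could be computed without read totals.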
